A study of Mus musculus with 15 samples.

Results

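The genes described here are 10 members of the prostaglandin system, chosen by name: the cyclooxygenases Ptgs1 and Ptgs2, the prostaglandin synthases Ptges, Ptges2, Ptgds and Ptgis, the prostaglandin E2 receptors Ptger1, Ptger2 and Ptger4, and the degrading enzyme Hpgd. All 10 were found among the 55416 genes of the count table by their Ensembl identifiers. The choice was by name and used no measured value; Ptgs2 (COX-2) and Ptger4 (EP4) are known from other work as responsive to mechanical load in podocytes.

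Glomerular capillaries of the kidney are wrapped by podocytes, epithelial cells that carry the load of the filtration pressure. The study grew SVI cells, a conditionally immortalised mouse podocyte line, on flexible silicone membranes and flexed them to imitate glomerular hypertension, with gene expression and splicing compared between stretched and unstretched cells. Experiment 1 held 3 unstretched samples and 6 low-stretch samples (labelled 5 to 6 mm of membrane deflection), and experiment 2 held 3 unstretched samples and 3 high-stretch samples (7 to 8 mm). All 15 samples were the same line, differentiated before stretching, with no other genotype or agent named in the labels. The results therefore describe 1 immortalised line on a membrane, and amplitude and experiment cannot be told apart. Nothing in the labels states that samples of a group were separate cultures, so p-values measure only the spread between these samples, which may be technical.

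Prostaglandins are made from arachidonic acid, which phospholipases release from membranes. Cyclooxygenase 1 (Ptgs1) and the inducible cyclooxygenase 2 (Ptgs2) turn it into prostaglandin H2, and terminal synthases turn that into prostaglandin E2 (Ptges, Ptges2), prostaglandin D2 (Ptgds) or prostacyclin (Ptgis). Prostaglandin E2 acts on a small family of G protein-coupled receptors, of which EP2 and EP4 raise cAMP and EP1 raises calcium, and Hpgd starts its breakdown. In podocytes the COX-2, prostaglandin E2 and EP4 axis is studied for its effects on the actin cytoskeleton and on the filtration barrier.

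Total counts per sample ran from 261999648 to 396658285 in experiment 1 and from 172211836 to 297641156 in experiment 2. At these depths 3 counts, the most that a count of 0 allows, correspond to 0.00756 to 0.0174 counts-per-million (CPM), for counting error only. Of 12 podocyte markers, 7 had a mean of at least 1 CPM in both unstretched groups and under low stretch, among them Podxl and Synpo, and 5 did under high stretch. Among defining markers, Tcf21 never passed 1 count, and the slit diaphragm gene Nphs1 averaged 0.29 to 0.68 CPM by group. Codes in the sample descriptions, which read as well positions, fall into runs of neighbouring wells, each holding 1 unstretched and 1 or 2 stretched samples. In experiment 1, samples of the same run deviated together from their group means (mean correlation 0.438 over 6 pairs, 0.328 to 0.57), whereas same-numbered samples did not (-0.0713 over 3 pairs). For low stretch, a fit with these runs as a block (run block) is therefore given for the members and pathway lists whose calls it changes; the labels do not say what the samples of a run share. In experiment 2 the samples of a run did not all deviate together (mean correlation 0.176 over 3 pairs, -0.164 to 0.45). Blocked fits for high stretch are therefore given only among the alternative settings. Unstretched replicate 3 of experiment 2 stood apart from its group in the early response genes Egr1 and Fos. High-stretch results of Ptgs2, Ptger4, Pla2g4a, Egr1 and Fos are given with and without that sample.

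Ptgs2 and Ptger4 correlated over the samples (r = 0.766), though each correlated more closely with other genes named below. The 250 bases before the RefSeq start of these 2 genes are shown first, together with 30 bases from Ptgds, the member with the largest change. All 3 are on the strand of the gene, 5′ to 3′, from GRCm38.p6, which is not the mm39 build of the counts. Capitals mark a C/EBP motif (TTGCNNAA) at positions -69 to -62 from the start of Ptgs2, a CCAAT box at -75 to -71 of Ptger4, and an AP-1 motif (TGANTCA) at -35 to -29 of Ptgds. For Ptgds only 30 bases are given, since the GENCODE model of the gene starts further upstream.
Ptgs2, chr1:150099781-150100030, + strand: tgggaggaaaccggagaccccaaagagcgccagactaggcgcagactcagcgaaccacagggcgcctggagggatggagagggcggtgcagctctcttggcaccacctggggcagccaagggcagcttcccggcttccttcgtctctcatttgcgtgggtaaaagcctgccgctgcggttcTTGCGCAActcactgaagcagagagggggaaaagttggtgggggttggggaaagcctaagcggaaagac
Ptger4, chr15:5244188-5244437, - strand: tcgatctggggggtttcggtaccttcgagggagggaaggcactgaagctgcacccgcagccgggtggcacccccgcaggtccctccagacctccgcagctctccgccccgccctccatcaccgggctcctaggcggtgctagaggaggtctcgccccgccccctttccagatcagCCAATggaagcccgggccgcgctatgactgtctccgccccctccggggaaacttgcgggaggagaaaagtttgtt
Ptgds, chr2:25469767-25469796, - strand: ggaggccaagccTGACTCAtaaataggggg
Windows were found for 8 of the 10 members, all except Ptgis and Ptger1. The Ptges window (chr2:30903298-30903547, - strand) lies inside the GENCODE model of the gene, which starts further upstream at 30929863. The other motifs searched on both strands were the cAMP response element core (TGACG), the TEAD motif (GGAATG), the TATA box (TATAAA) and the CArG box; GGAATG occurred on the minus strand before Ptges (positions -151 to -146 from the start) and Ptges2 (-146 to -141), and CCAAT before Ptger2 (-160 to -156). Among 32851 RefSeq windows of this length, 9.56% held the C/EBP motif, 33.8% a CCAAT box, 6.75% the AP-1 motif, 12.6% GGAATG, 17.8% TGACG, 12.4% TATAAA and 1.47% a CArG box. A match describes letters in these windows and shows no binding.

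Levels per length, as transcripts-per-million (TPM) summed over the transcripts of each gene, differed widely between members. In unstretched cells of experiment 1, Ptges2 was highest at 23.1 ± 1.901 TPM (SD, n = 3), followed by Ptger4 at 7.28 ± 2.96 TPM, Ptger1 at 2.15 ± 0.154 TPM and Ptgs2 at 0.796 ± 0.406 TPM. Most of the Ptges2 level was Ptges2-203, annotated as a retained intron, at 19.6 TPM, with the protein-coding Ptges2-201 at 3.24 TPM. The protein-coding Ptger4-201 and Ptger4-202 stood at 4.905 and 2.30 TPM. Ptgs2 overlapped with Ptgds, the next in order at 0.512 ± 0.221 TPM. Ptges at 0.134 ± 0.0294 TPM and Ptgs1 at 0.108 ± 0.0662 TPM also overlapped. In unstretched cells of experiment 2 the same 3 genes led, with Ptges2 at 46.0 ± 13.2 TPM, Ptger4 at 4.13 ± 3.48 TPM and Ptger1 at 1.66 ± 0.261 TPM, the last pair overlapping. By transcript, Ptges2-203 and Ptges2-201 stood at 38.3 and 7.31 TPM in these cells, and Ptger4-201 and Ptger4-202 at 2.97 and 1.16 TPM. Ptgds was the next there at 0.756 ± 0.0937 TPM, and Ptgs2 lay below Ptges at 0.165 ± 0.132 TPM. Prostacyclin synthase Ptgis, the receptor EP2 gene Ptger2 and Hpgd were at or near the floor: their highest counts in any of the 15 samples were 5, 1 and 1, and 7, 12 and 11 samples had no count. These 3 did not pass the filter on low counts, so 7 of the 10 members were tested in each comparison.

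**Figure D1:**
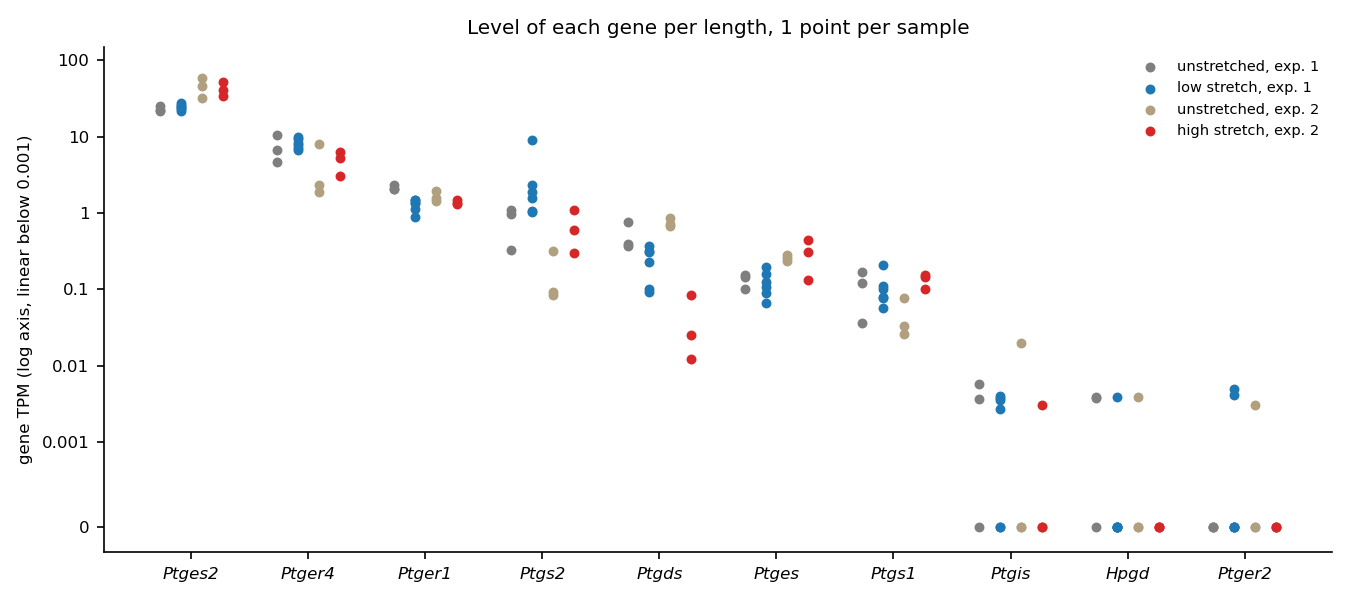
Gene TPM of the 10 members (x axis) in each of the 15 samples, coloured by group; the y axis is logarithmic above 0.001 TPM and linear below it. Ptges2 lies above every other member in all 4 groups, and Ptgis, Hpgd and Ptger2 lie lowest, with samples at 0 in every group.

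Unstretched cells of the 2 experiments started from different prostaglandin gene levels, which sets the base of each stretch comparison. Of the 7 members tested, 4 differed between the unstretched groups, where 62.5% of all genes did. Ptges2 (log2 fold change 1.74, SE 0.349, edgeR adjusted p = 0.00554), Ptges (1.34, SE 0.367, edgeR adjusted p = 0.0135) and Ptgds (1.06, SE 0.362, edgeR adjusted p = 0.032) were higher in experiment 2. Ptgs2 was lower there by 1.84 on the log2 scale (SE 0.523, edgeR adjusted p = 0.0156). The differences in Ptgs1, Ptger1 and Ptger4 did not pass the test (edgeR adjusted p = 0.972, 0.163 and 0.444). Leaving out 1 sample at a time, Ptges and Ptges2 kept their calls in 6 of 6 fits, Ptgs2 in 3 and Ptgds in 2. Ptger1 and Ptger4 each gained a call in 1 of the 6. For Ptger4 the log2 fold change ranged from -1.08 to -0.03 over these fits, with a lowest edgeR adjusted p of 0.0182.

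The mean level of Ptgs2 was higher with stretch in both experiments, but neither difference passed the test. Without stretch in experiment 1 it stood at 2.44, 2.20 and 0.769 CPM in replicates 1 to 3. Under low stretch it stood at 22.4, 5.38, 4.16, 4.87, 2.55 and 2.44 CPM in replicates 1 to 6. Replicate 1 of the low-stretch group was far above the others, and the lowest low-stretch samples met the highest unstretched ones. The log2 fold change was 1.94 (SE 0.755, edgeR adjusted p = 0.152), which did not pass the test, and it was 1.10 without low-stretch replicate 1 (edgeR adjusted p = 0.159). Within the runs of wells, all 6 low-stretch samples were above their unstretched partner, by 0.92 to 3.19 on the log2 scale. With the run block the change was 1.71 (SE 0.407, edgeR adjusted p = 0.0105), in a fit that called 28.2% of all genes.

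In experiment 2, Ptgs2 stood at 0.341, 0.333 and 0.837 CPM without stretch and at 3.52, 1.21 and 2.23 CPM under high stretch. The groups did not overlap; 9.97% of all genes tested had high-stretch samples all above the unstretched ones. The log2 fold change was 2.20 (SE 0.518, edgeR adjusted p = 0.0633). Unstretched replicate 3 was the highest of its group, and it also held far more RNA of the early genes Egr1 (1060 CPM against 104 and 115.6 CPM) and Fos (229.4 CPM against 22.6 CPM in both others). Without that sample the change was 2.85 and passed the test (edgeR adjusted p = 0.00425). Of the 6 fits that leave out 1 sample, only that 1 called Ptgs2, and the edgeR adjusted p reached 0.25 in the others. The Ptgs2 difference passed in 4 of 7 other settings, DESeq2 among them (adjusted p = 5.98e-05), and the highest edgeR adjusted p was 0.108. The 7 include a block by replicate number and the run block, which pair the same samples here.

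Ptgs1, the constitutive cyclooxygenase, was lower than Ptgs2 per length in every group (0.108 against 0.796 TPM on average in unstretched cells of experiment 1). It stood at 0.0974, 0.0816 and 0.0542 CPM without stretch in experiment 1 and at 0.0521 to 0.230 CPM, median 0.101 CPM, under low stretch. The groups overlapped, with the highest value again in low-stretch replicate 1 (log2 fold change 0.49, SE 0.447, edgeR adjusted p = 0.54). Per length its mean was 0.108 TPM without stretch and 0.106 TPM under low stretch. In experiment 2 it stood at 0.116, 0.0889 and 0.0437 CPM without stretch and at 0.295, 0.262 and 0.169 CPM under high stretch. These groups did not overlap, with high-stretch samples all above, as was the case for 9.97% of all genes tested. The log2 fold change of 1.61 (SE 0.449) missed the threshold (edgeR adjusted p = 0.112) and passed it in DESeq2 (adjusted p = 0.0342). These values rest on 12 to 73 counts per sample.

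Lipocalin-type prostaglandin D synthase Ptgds, which makes prostaglandin D2, fell under high stretch. It stood at 0.464, 0.415 and 0.331 CPM in the unstretched samples of experiment 2 and at 0.00809, 0.0496 and 0.0121 CPM under high stretch, which are 2, 7 and 3 counts. All 3 stretched samples were below all 3 unstretched ones, as was the case for 10.7% of all genes tested. The log2 fold change was -4.25 (SE 0.579, edgeR adjusted p = 0.0113), and Ptgds was the only member called among the 7, where 3.47% of all genes were called (2.16% lower). From the summed counts, 12 against 219, the level was 20.5-fold lower with a 95% exact interval of 11.5 to 40.4 that covers counting error only. The call was lost without unstretched replicate 1 (edgeR adjusted p = 0.0543), high-stretch replicate 1 (0.068) or high-stretch replicate 3 (0.0889), with log2 fold changes of -5.18 to -3.81 over the 6 fits that leave out 1 sample. In experiment 1 Ptgds stood at 0.136, 0.154 and 0.284 CPM without stretch and at 0.121, 0.0751, 0.0427, 0.0466, 0.146 and 0.157 CPM under low stretch. The groups overlapped, but all 6 low-stretch samples lay below their own run's unstretched sample, by 0.15 to 1.69 on the log2 scale. The log2 fold change of -0.96 (SE 0.418) did not pass the test (edgeR adjusted p = 0.194) and passed it with the run block (-1.02, edgeR adjusted p = 0.0126). In bulk RNA, fewer cells expressing a gene and less RNA per cell cannot be told apart.

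The differences in the prostaglandin E synthases did not pass the test in either experiment. Membrane-associated Ptges2 ranged from 13.2 to 16.1 CPM without stretch and from 14.1 to 20.3 CPM under low stretch (log2 fold change 0.22, SE 0.128, edgeR adjusted p = 0.325; with the run block 0.22, edgeR adjusted p = 0.0462). In experiment 2 it ranged from 24.3 to 69.4 CPM without stretch and from 31.1 to 61.8 CPM under high stretch, with a log2 fold change of -0.07 (SE 0.382, edgeR adjusted p = 0.975). The inducible synthase Ptges stayed between 0.0876 and 0.525 CPM in all 15 samples. Its log2 fold changes were 0.18 (SE 0.249, edgeR adjusted p = 0.706) under low stretch and 0.23 (SE 0.441, edgeR adjusted p = 0.912) under high stretch, so no difference was detectable beyond this spread.

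**Figure D2:**
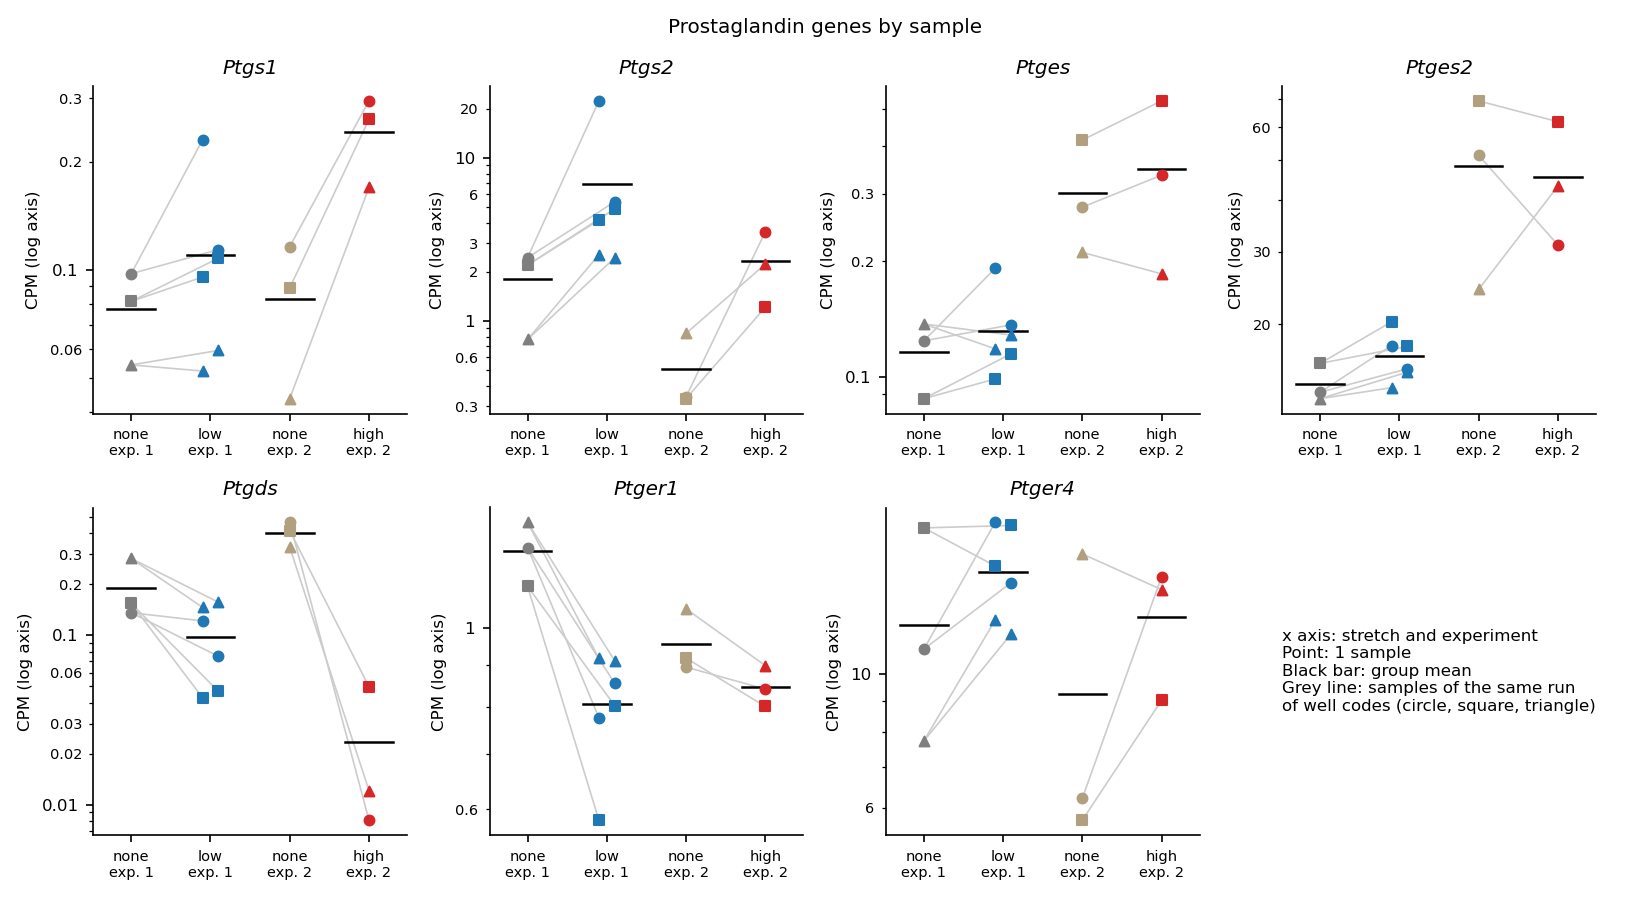
CPM (log axis) of the 7 tested members in each sample; the x axis gives the stretch and the experiment, black bars are group means, and grey lines join samples of the same run of wells. Every line of Ptgs2 rises and every line of Ptgds falls, while Ptges and Ptges2 show lines in both directions in experiment 2.

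Among the receptors, the EP1 gene Ptger1 was lower under low stretch. It stood at 1.25, 1.12 and 1.35 CPM without stretch and at 0.777, 0.855, 0.582, 0.803, 0.917 and 0.911 CPM under low stretch. All 6 low-stretch samples were below all 3 unstretched ones, which was the case for 7.47% of all genes tested. Ptger1 fell by 0.63 on the log2 scale (SE 0.158, edgeR adjusted p = 0.047) and was the only member called of 7, where 5.45% of all genes were called (3.6% lower). The call sat at the threshold. It was kept in 2 of the 9 fits that leave out 1 sample, without low-stretch replicate 3 (edgeR adjusted p = 0.0465) or replicate 5 (0.0429), and the adjusted p reached 0.211 in the others; with the run block it was 0.00358. In experiment 2 Ptger1 stood at 0.895, 0.918 and 1.06 CPM without stretch and at 0.842, 0.801 and 0.899 CPM under high stretch. The groups overlapped (log2 fold change -0.16, SE 0.225, edgeR adjusted p = 0.88).

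Ptger4, the EP4 receptor gene, was the most abundant receptor of the list, and its stretch differences did not pass the test in either experiment. Without stretch in experiment 1 it stood at 10.98, 17.4 and 7.74 CPM, and under low stretch at 17.8, 14.2, 15.1, 17.6, 12.3 and 11.6 CPM. The unstretched samples spread more widely than the stretched ones and enclosed most of them. The log2 fold change was 0.28 (SE 0.236, edgeR adjusted p = 0.502), and 5 of 6 low-stretch samples lay above the unstretched sample of their run. In experiment 2 it stood at 6.22, 5.72 and 15.8 CPM without stretch and at 14.5, 9.04 and 13.8 CPM under high stretch. Unstretched replicate 3, the sample with high Egr1 and Fos, was the highest of the 6. The log2 fold change of 0.44 (SE 0.424, edgeR adjusted p = 0.787) became 1.12 without that sample and then passed the test (edgeR adjusted p = 0.0274), so 1 unstretched library decided this result.

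**Figure D3:**
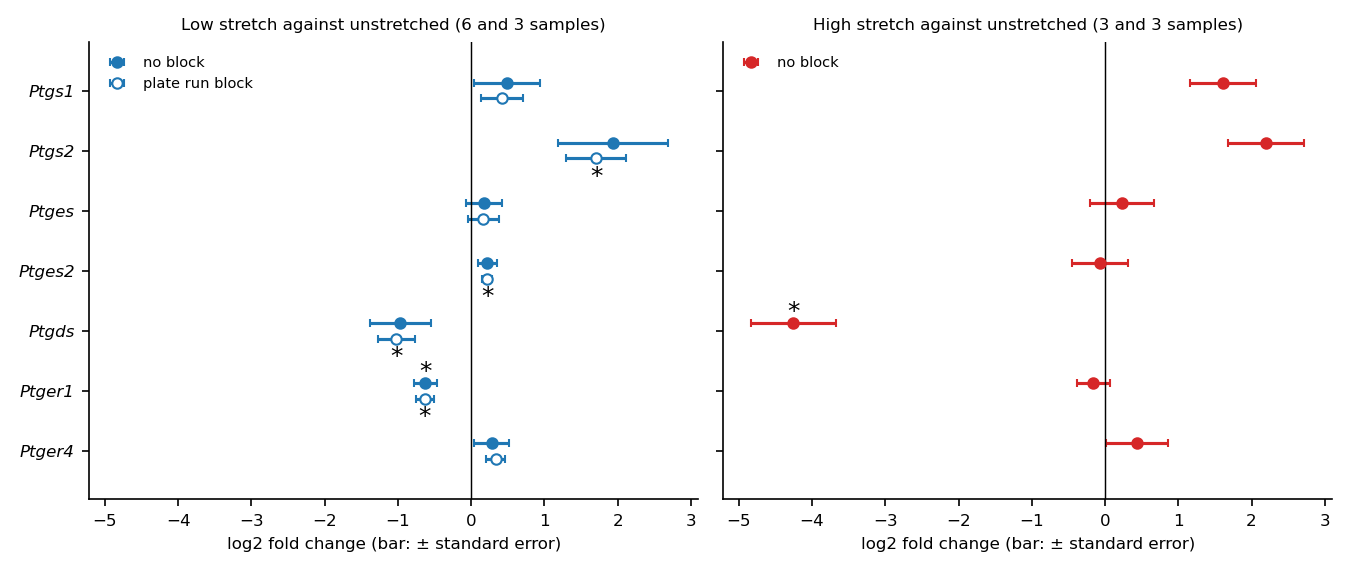
Log2 fold change with its standard error for the 7 tested members under low stretch (left) and high stretch (right), from fits without a block (filled) and, for low stretch, with the run block (open); asterisks mark adjusted p under 0.05. Ptgs2 lies at 1.94 and 1.71 on the left and 2.20 on the right, and Ptgds at -0.96 and -1.02 on the left and -4.25 on the right.

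The difference between the high-stretch and the low-stretch effect was tested in a fit of all 15 samples. No member of 7 and no gene of 22015 passed the adjusted threshold in edgeR (0.0%), and none did in DESeq2; at an unadjusted p under 0.05 there were 547 genes in edgeR and 785 in DESeq2, of which Ptgds was the only member in each. The Ptgds difference was -3.34 on the log2 scale (SE 0.785, unadjusted p = 0.000608, edgeR adjusted p = 1.0). For Ptgs2 it was 0.23 (SE 0.972). The effects of the members were therefore not shown to differ between the 2 experiments.

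The study asks about splicing, and transcript shares were tested for the members with a mean of at least 1 TPM. Of these, 6 transcripts of 3 members could be tested, and limma called none of the 6 in either comparison; none had an unadjusted p under 0.05. Over all transcripts, limma called 0.0144% under low stretch and 0.0% under high stretch, with 2777 and 1881 at an unadjusted p under 0.05. The transcript of Ptges2 that is annotated as a retained intron, Ptges2-203, held 84.8% ± 0.266 of the TPM of the gene without stretch and 84.4% ± 1.58 under low stretch, and 83.3% ± 0.549 and 83.9% ± 0.284 in experiment 2. The protein-coding Ptges2-201 held 15.8% ± 0.738 and 15.4% ± 0.538 in experiment 2. The coding transcript Ptger1-201 held 55.8% ± 5.17 without stretch and 52.1% ± 7.97 under low stretch, and 33.4% ± 8.47 and 26.1% ± 4.201 in experiment 2 (limma adjusted p = 0.803 and 0.748). Ptger4-202 held 32.1% ± 2.25 and 33.7% ± 2.54 in experiment 1, and Ptger4-201 71.9% ± 4.93 and 70.5% ± 4.85 in experiment 2. These are means ± SD over 3 or 6 samples, and TPM carries no depth.

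Around the members, 79 further genes in 7 lists cover the rest of the pathway. Under low stretch 57 were tested, of which 3 were higher and 5 lower, where 5.45% of all genes were called, and the median log2 fold change was -0.03 against 0.01 over all genes. The low-stretch fit with the run block, which called 28.2% of all genes, also called more genes of these lists. Under high stretch 53 were tested, of which 2 were higher and 1 lower, where 3.47% of all genes were called, with a median of 0.04 against -0.02. None of the 8 phospholipase genes tested in each comparison passed; with the run block 1 was higher (Pla2g4a) and 1 lower (Pla2g4b, edgeR adjusted p = 0.0118) under low stretch. The cytosolic phospholipase Pla2g4a, which releases arachidonic acid, averaged 9.80 ± 1.70 CPM without stretch (SD, n = 3) and 15.3 ± 3.99 CPM under low stretch (SD, n = 6). Its log2 fold change of 0.63 did not pass (edgeR adjusted p = 0.125) and passed with the run block (0.61, edgeR adjusted p = 0.000942). Under high stretch its change of 0.56 (edgeR adjusted p = 0.662) became 1.15 without unstretched replicate 3 (edgeR adjusted p = 0.0287). None of 7 further prostanoid synthases passed under low stretch, and none of 5 under high stretch; with the run block Ptges3, the cytosolic prostaglandin E synthase, passed under low stretch (0.25, edgeR adjusted p = 0.0058). Of the 3 other prostanoid receptors tested, none passed under low stretch, and with the run block 1 was higher (Ptgir, edgeR adjusted p = 0.0162) and 1 lower (Tbxa2r, edgeR adjusted p = 0.0419).

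Of the lipoxygenase branch, 1 of 8 genes under low stretch and 1 of 6 under high stretch passed, in both cases the leukotriene receptor gene Cysltr1. Of all genes, 5.45% and 3.47% passed. With the run block, which called 28.2% of all genes, Lta4h, which makes leukotriene B4, also passed under low stretch (0.35, edgeR adjusted p = 0.00074). Cysltr1 stood at 2.43 to 10.4 CPM without stretch and at 0.276 to 1.57 CPM under low stretch (log2 fold change -2.82, SE 0.591, edgeR adjusted p = 0.023). In experiment 2 it stood at 0.830 to 2.68 CPM without stretch and at 0.0809 to 0.0922 CPM under high stretch (-4.34, SE 0.481, edgeR adjusted p = 0.00622). The groups overlapped in neither experiment. Stretched samples were all below unstretched ones for 7.47% of all genes tested under low stretch and 10.7% under high stretch. The low-stretch call was kept in 5 of 9 fits that leave out 1 sample and the high-stretch call in 4 of 6. Beside these falls and that of Ptgds, the summed mast cell list ranged lower with stretch. Its ranges overlapped in experiment 1 (338.4 to 892.3 against 125.0 to 482.0 CPM) but not in experiment 2 (59.5 to 187.4 against 14.4 to 24.1 CPM). It rested on Ms4a2 alone, with Cpa3, Fcer1a and Kit at no more than 2 counts in any sample. The leukocyte list was also lower (23.5 to 26.3 against 6.76 to 13.2 CPM, and 23.9 to 26.3 against 5.94 to 9.93 CPM), through Csf1r, with Ptprc at no more than 17 counts and Adgre1 and Itgam at no more than 2. Cd68 of that list averaged 1.15 and 1.07 CPM in experiment 1, and its mean rose from 1.045 to 1.88 CPM in experiment 2. Ptprc means were higher with stretch in both experiments. The tubule list was lower as well (926.0 to 1089 against 474.1 to 757.2 CPM) and overlapped in experiment 2 (317.1 to 667.3 against 249.2 to 424.7 CPM), through Lrp2, with Umod, Slc34a1 and Aqp2 at no more than 3 counts. Slc12a1 of that list went the other way, from means of 0.378 to 0.609 CPM and from 0.107 to 0.128 CPM. The part of these marker list changes in the falls of Ptgds and Cysltr1 was not tested.

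Of 14 tested genes of the cAMP arm below EP2 and EP4, 2 rose and 1 fell under low stretch, where 5.45% of all genes were called. None of 14 passed under high stretch, where 3.47% of all genes were called. With the run block 3 of the 14 were higher and 4 lower under low stretch, in a fit that called 28.2% of all genes. The cAMP-responsive repressor gene Crem rose by a log2 fold change of 0.75 (SE 0.12, edgeR adjusted p = 0.00838), from 20.2 ± 2.51 CPM (SD, n = 3) to 34.1 ± 4.49 CPM (SD, n = 6). The nuclear receptor gene Nr4a2 rose by 0.72 (SE 0.154, edgeR adjusted p = 0.0251), from 8.06 ± 1.03 to 13.4 ± 2.51 CPM. The adenylate cyclase gene Adcy9 fell by 0.40 (SE 0.0927, edgeR adjusted p = 0.0357). Leaving out 1 sample at a time, the call was kept in 9 of 9 fits for Crem, 5 of 9 for Nr4a2 and 2 of 9 for Adcy9, whose adjusted p reached 0.175 in edgeR. Under high stretch the log2 fold changes of Crem and Nr4a2 were 0.61 (edgeR adjusted p = 0.351) and 1.32 (edgeR adjusted p = 0.144), and neither passed. For both genes all high-stretch samples were above all unstretched ones, as was the case for 9.97% of all genes tested. The nearest Crem samples stood at 12.7 and 12.3 CPM.

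Among 11 tested regulators of Ptgs2 and Ptges, 1 rose and 2 fell under low stretch, and none passed under high stretch. The shares called over all genes were 5.45% and 3.47%. With the run block 2 of the 11 were higher and 3 lower under low stretch, where 28.2% of all genes were called. Jun, a subunit of AP-1, rose by 0.38 on the log2 scale (SE 0.0721, edgeR adjusted p = 0.0162). Egr1 fell by 1.36 (SE 0.185, edgeR adjusted p = 0.00507), and Fos, the partner of Jun in AP-1, fell by 0.89 (SE 0.149, edgeR adjusted p = 0.00966). Of the 9 fits that leave out 1 sample, Egr1 kept its call in 9, Fos in 8 and Jun in 7. Under high stretch the Egr1 and Fos changes of -2.77 and -2.84 did not pass (edgeR adjusted p = 0.162 and 0.16), and were -0.75 and -0.77 without unstretched replicate 3, where both passed (edgeR adjusted p = 0.0242 and 0.0423). Of the transport and clearance list, the reductase gene Zadh2, which acts on prostaglandin metabolites, fell under low stretch by 0.35 (SE 0.0642, edgeR adjusted p = 0.0127) and kept its call in 7 of 9 such fits. With the run block 2 of the 6 tested genes of that list were higher and 2 lower, again beside 28.2% of all genes.

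Under high stretch 2 genes of the lists rose, both below 1 CPM and named after their values were seen. The prostacyclin receptor gene Ptgir stood at 0.0387, 0.0518 and 0.0510 CPM without stretch and at 0.146, 0.234 and 0.278 CPM with it (log2 fold change 2.20, SE 0.397, edgeR adjusted p = 0.0258). The prostaglandin uptake transporter gene Slco2a1 stood at 0.116, 0.118 and 0.102 CPM and at 0.449, 0.262 and 0.318 CPM (1.65, SE 0.339, edgeR adjusted p = 0.0423). Neither pair of groups overlapped, and 9.97% of all genes tested had high-stretch samples all above the unstretched ones. The Ptgir call was kept in 2 of 6 fits that leave out 1 sample, and the Slco2a1 call in 1 of 6.

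**Figure D4:**
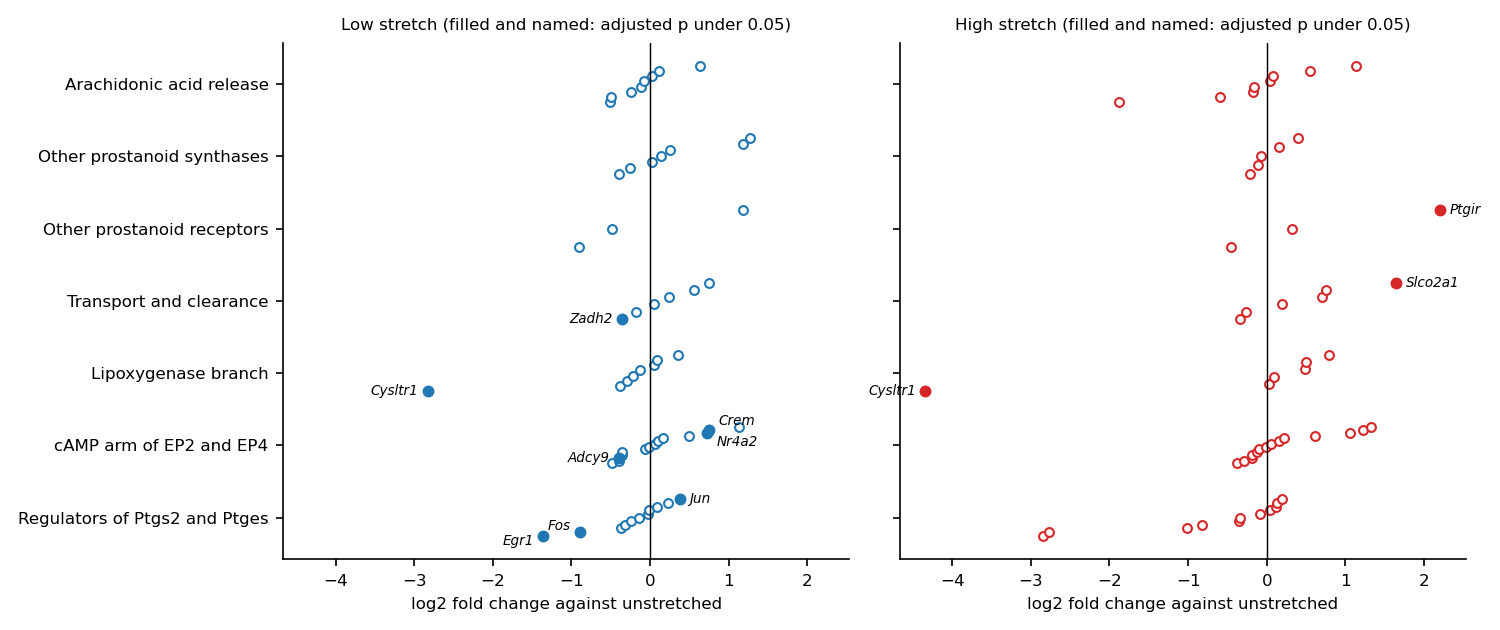
Log2 fold change against unstretched cells (x axis) for the tested genes of the 7 pathway lists (y axis) under low stretch (left) and high stretch (right); filled, named points have an adjusted p under 0.05. Cysltr1 is the lowest called gene in both panels, at -2.82 and -4.34, and 8 genes are filled on the left and 3 on the right.

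The genes whose pattern over the 15 samples was most like that of each member were ranked by Pearson correlation of log2 CPM after removal of each experiment's mean, among 12364 genes with a mean of at least 1 CPM in each experiment. These values are a description, since samples share runs, depth and the stretch contrast. For Ptgs2 the top 3 were Abcc4 (r = 0.968, rho = 0.921), Tec (r = 0.968, rho = 0.939) and Socs2 (r = 0.966, rho = 0.975). Abcc4, also in the transport list, encodes an exporter that carries prostaglandins; r was 0.935 without the 2 samples farthest from the median of Ptgs2, and 0.967 and 0.970 in the 2 experiments. It averaged 38.2 ± 5.74 CPM without stretch and 56.4 ± 19.4 CPM under low stretch, and 32.3 ± 2.26 and 53.8 ± 12.7 CPM in experiment 2; its own changes did not pass (edgeR adjusted p = 0.203 and 0.126), and the low-stretch change passed with the run block (edgeR adjusted p = 0.0332). Abcc4 was higher than its run's unstretched sample in 6 of 6 low-stretch samples. In experiment 2 its high-stretch samples were all above the unstretched ones, as was the case for 9.97% of all genes tested.

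For Ptger4 the top 3 were Zfp36l2 (r = 0.970), Spry2 (r = 0.942) and Efnb2 (r = 0.939). Ptger4 also correlated with Ptgs2 (r = 0.766; 0.756 in experiment 1 and 0.810 in experiment 2) and with Pla2g4a (r = 0.914; 0.814 and 0.993). The windows printed above for Ptgs2 and Ptger4 shared none of the motifs searched. For Ptgds the top 3 were Cdh16 (r = 0.961), Hap1 (r = 0.938) and Chdh (r = 0.930), and for Ptger1 they were 2700054A10Rik (r = 0.919), Hipk4 (r = 0.917) and Slc9a5 (r = 0.909). Ptgs2 and Ptgds ran opposite to each other (r = -0.720; -0.523 and -0.951), and Ptgs2 and Ptges2 were nearly unrelated over all samples (r = -0.0858), with 0.643 in experiment 1 and -0.483 in experiment 2.

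**Figure D5:**
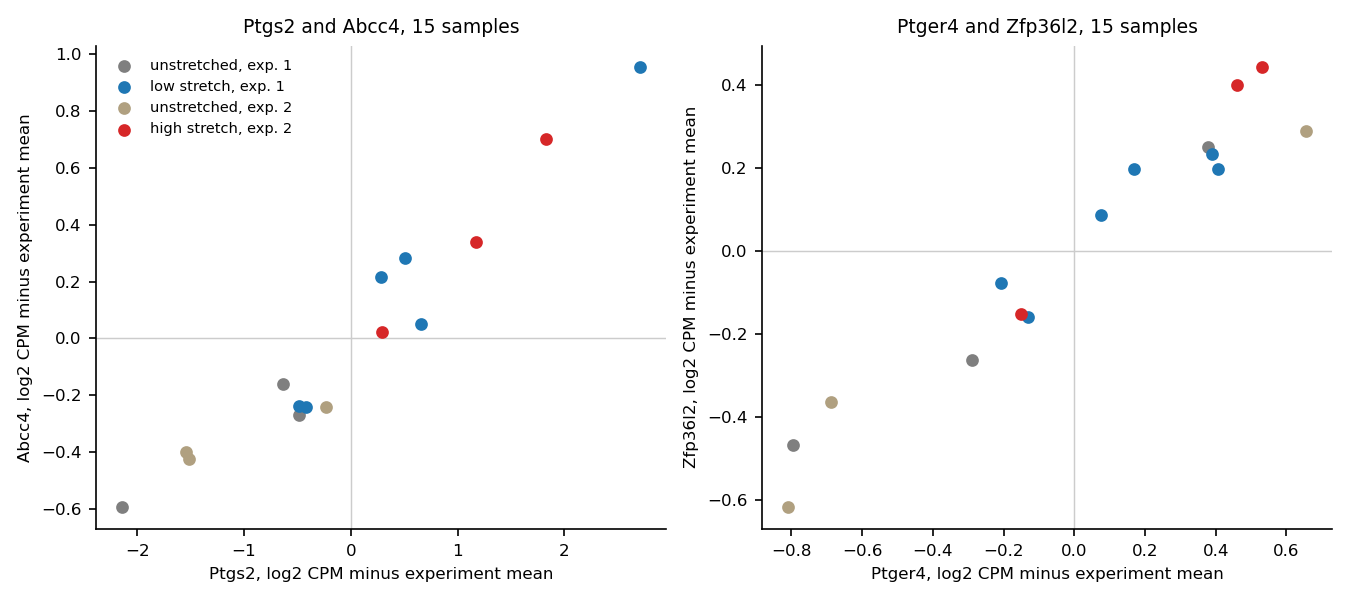
Log2 CPM minus the mean of the experiment for Ptgs2 against Abcc4 (left) and Ptger4 against Zfp36l2 (right) in the 15 samples, coloured by group. Low-stretch replicate 1 is the highest point on the left at 22.4 CPM of Ptgs2, and on the right stretched and unstretched samples mix along the line.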

How the data were processed

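RNA-seq libraries (TruSeq stranded mRNA, poly(A) selected, Illumina NovaSeq, per the labels' protocols) of 15 SVI podocyte samples were read from 2 deposited tables. The deposited gene counts are raw whole-number counts; the submitters' processing notes name STAR 2.7.5c, featureCounts, Subread 2.0.0, DESeq2 1.38.3, Salmon 1.9.0 and mm39. The deposited transcript TPM values were made by the authors and carry no depth. The strand setting, the counting of read pairs and the annotation release are not given in the sources used here, so reads of a member and of any gene on the opposite strand cannot be told apart. Some results are not reported here. Symbols and transcript names come from GENCODE M21 on GRCm38, which is not the files' build; 52083 of 55416 genes and 137189 of 140789 transcripts matched, and unmatched genes held at most 0.231% of a sample's counts.

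Low and high stretch were each tested against the unstretched group of the same experiment in edgeR 4.0.16 (R 4.3.3; TMM, filterByExpr, quasi-likelihood F test, Benjamini-Hochberg over all genes tested, threshold 0.05). The difference between the stretch effects was fitted on all 15 samples. CPM values are counts per library size scaled by TMM over the 15 samples. Transcript usage was tested with limma 3.58.1 on log2 ratios (1 transcript over the rest of its gene, each TPM value raised by 0.1 first), for genes with a mean of at least 1 TPM and transcripts holding 0.05 to 0.95 of it. Alternatives were DESeq2 1.42.0, RLE size factors, no filter, a mean count of at least 100, one fit of all samples, replicate and run blocks, other pseudocounts, and leaving out each sample in turn. Low-stretch replicates 1 to 3 alone, and gene TPM in place of CPM, were added after seeing the data. In a test on simulated counts, 200 genes were given a log2 change of 2, of which the fits recovered 94.5% (low stretch, 21361 genes) and 96.0% (high stretch, 18248 genes). The simulation gave every gene the same dispersion, without run effects or outlying samples, so these shares do not give the power for the members.

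The named pathway genes are the genes of the 79 in 7 lists with an adjusted p under 0.05 and a mean of at least 1 CPM in the comparison, and Ptgir, Slco2a1, Pla2g4a and Abcc4 were added after their values were seen. The 3 genes most like a member were ranked by Pearson correlation. Motif letters were chosen with the sequences in view. The members and lists were chosen with earlier results of these data known.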

Additional observations from a re-analysis of the deposited data

Results flagged for a closer look

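Ptgs2 stood at 22.4 CPM in low-stretch replicate 1, far from the other 5 low-stretch samples: the gap to the nearest was 0.852 of the group's range, above Dixon's 95% critical value of 0.625 for 6 samples. Ptgs1 stood at 0.230 CPM in the same sample, with a gap of 0.654 of the range. Chance marks about 1 in 20 groups, and 7 groups were tested.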

How the results depend on the processing

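Ptgds was lower under high stretch in every fit that tested it, and Ptger1 lower and Ptgs2 higher in every fit of both stretch comparisons; their calls were less stable. Of the 7 members, 1 was called under low stretch, 0 without a filter, with all 15 samples in one fit or with low-stretch replicates 1 to 3 only (chosen after seeing the data), 4 with the run block, 1 with the replicate block (Ptgs2, not Ptger1) and 0 to 1 when each sample was left out. Under high stretch 1 was called, against 3 in DESeq2, 2 without a filter, 0 at a mean count of at least 100 (Ptgds is not among the genes tested there), 3 with the replicate block, which is there the run block (Ptgs1 and Ptgs2 besides Ptgds, edgeR adjusted p = 0.00981 and 1.31e-06), and 0 to 3 when each sample was left out. Between the unstretched groups 4 were called, 2 at a mean count of at least 100 and 2 to 6 when each sample was left out. No member was called for the difference between the effects or for transcript usage in any setting, replicate block included. Over all genes, calls under low stretch numbered 1181 (220 to 1630 with a sample left out, 490 to 6106 otherwise), under high stretch 643 (14 to 1421, and 414 to 1546), and between unstretched groups 12941 (9312 to 15698, and 10139 to 14820).

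Signs changed only for values that were not called. With the replicate block the difference between the effects was -0.12 for Ptgs2 and -0.13 for Ptges, and with the run block -0.022 for Ptges. With each sample left out, Ptges2 under high stretch ranged from -0.36 to 0.29 and Ptges from -0.13 to 0.57. The difference ranged from -0.20 to 1.08 for Ptgs2, -0.37 to 0.34 for Ptges, -0.60 to 0.035 for Ptges2 and -0.23 to 0.84 for Ptger4, and Ptgs1 between the unstretched groups from -0.31 to 0.34. The cause was not tested. Same-numbered samples had a mean correlation of -0.0713 in experiment 1 and 0.176 in experiment 2 (-0.164 to 0.45), and not every sample correlated best with its own number, so neither set of numbers is taken to pair the samples. In experiment 2 the runs of wells are the same pairs, so the block has no more support there; besides the members it added calls for Egr1, Fos, Cebpd, Zfp36 and Pla2g5 (lower) and Nr4a2, Nr4a3, Prkar2b and Abcc4 (higher), with edgeR adjusted p from 0.000459 (Fos) to 0.0491 (Pla2g5). Depth limits Ptgis, Ptger2 and Hpgd, whose highest counts were 5, 1 and 1, and Ptgds under high stretch, at 2 to 7 counts.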

Other observations

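Cdh16, a kidney cadherin gene and the gene most like Ptgds over the samples, was far more abundant than Ptgds. It averaged 415.2 CPM in the 3 unstretched and 217.6 CPM in the 6 low-stretch samples of experiment 1, and 888.0 and 206.2 CPM in the 3 unstretched and 3 high-stretch samples of experiment 2. Socs2, an inhibitor of cytokine signalling that was among the genes most like Ptgs2, averaged 33.9 and 72.1 CPM in experiment 1 and 17.6 and 46.6 CPM in experiment 2. These genes were picked by their likeness in the same samples, so their levels are a description.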
